A study of Mus musculus with 8 samples.

Results

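Transcripts of digestive enzymes that pancreatic acinar cells secrete were followed in RNA of enterocytes isolated from mouse small intestine. Of 10 genes named as members, 9 had at least 1 probe set annotated to that gene symbol alone, with 15 probe sets in all. The deposited values held 10401 such genes and 18443 probe sets. Pnlip had no probe set annotated to it alone and is not analysed here. The members were chosen by name, but selected on earlier results of these same arrays, in which acinar transcripts had differed widely between arrays and between genotypes. Their values are therefore given as a description.

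The arrays carried RNA of adult male C57BL/6 mice aged 2.5 to 3.0 months, 4 arrays for WT littermates and 4 for IE-Cpr-null mice, whose intestinal epithelium lacks Cpr, the reductase that passes electrons to cytochrome P450 enzymes. Each array held RNA pooled from 2 mice of 1 genotype, which makes 8 mice a genotype and a spread that is one between pools. The labels do not name the promoter behind the deletion, and the targeted gene is not analysed here. The enterocytes came from dissected small intestine. Values were log2 units from which the median of the WT arrays had been subtracted for each probe set, so that levels are unknown and no gene's level can be set against another's. Where the middle WT values came from WT 1 and WT 4, these arrays stand at equal distances either side of 0 by construction.

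Acinar cells of the pancreas store digestive enzymes in zymogen granules and release them through the pancreatic duct into the duodenum. The proteases are made as inactive precursors, which enteropeptidase of the duodenal brush border and trypsin then activate, while lipases work on dietary fat with colipase as a cofactor. Enterocytes digest with their own membrane-bound peptidases and disaccharidases and are not known as a main source of these secreted enzymes.

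The signal was high on some arrays of both genotypes and low on others of both. The median over the 9 genes was 1.73 on WT 2, 0.39 on WT 4 and -0.47 on WT 1. It was -5.86 on WT 3. Among the IE-Cpr-null arrays it was -1.87 on replicate 1, against -5.78, -5.92 and -5.55 on replicates 2, 3 and 4. WT 3 thus stood with the low IE-Cpr-null arrays, and IE-Cpr-null 1 stood between them and the other WT arrays. WT 2 was the highest of the 8 arrays in 13 of the 15 probe sets, WT 3 the lowest WT array in 13, and IE-Cpr-null 1 the highest IE-Cpr-null array in all 15. In bulk RNA such as this, fewer cells of a type and less RNA per cell cannot be told apart. The median over all probe sets lay between -0.025 and 0.036 on every array.

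**Figure D1:**
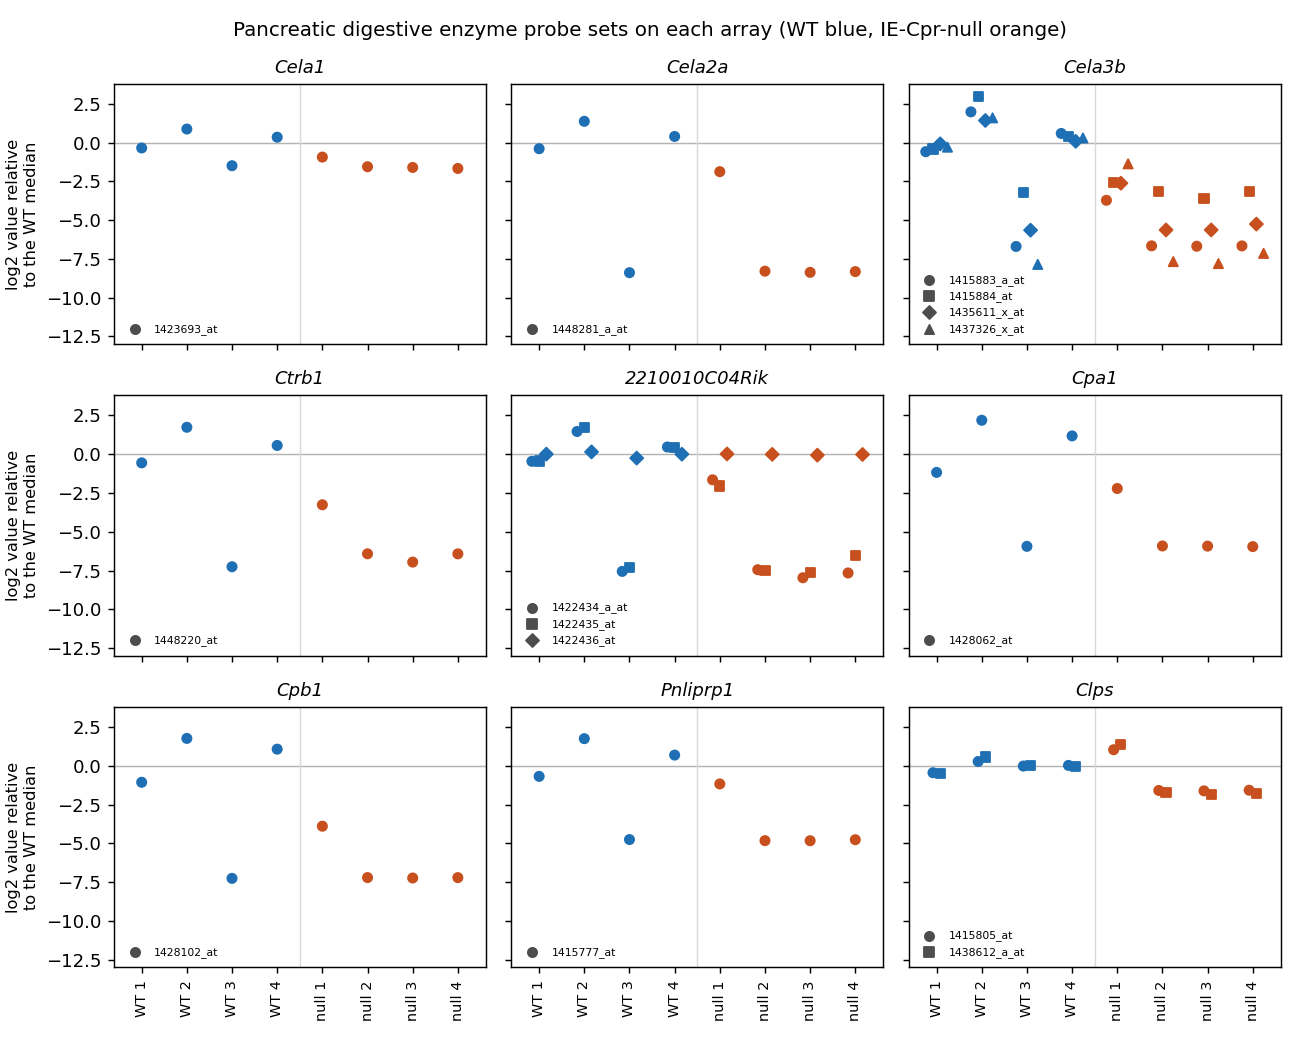
Log2 values relative to the WT median (vertical axis) of the 15 member probe sets on each of the 8 arrays (horizontal axis), 1 panel a gene, with WT in blue, IE-Cpr-null in orange and a marker shape for each probe set; each point is 1 array and there are no error bars. WT 3 lies with IE-Cpr-null 2, 3 and 4 in every panel except that of Clps, and 1 probe set of 2210010C04Rik stays near 0.

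Among the elastases, a family of proteases, Cela2a spanned the widest range. On the WT arrays its probe set 1448281_a_at read -0.39, 1.37, -8.39 and 0.39 on replicates 1 to 4. On the IE-Cpr-null arrays it read -1.87, -8.29, -8.37 and -8.32. WT 3 and the last 3 IE-Cpr-null arrays were within 0.097 of each other, whereas WT 2 exceeded WT 3 by 9.76 on the processed log2 scale. Since the low values may lie at background, such a gap is not read as a fold change in transcript.

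Cela3b, another elastase gene, was read by 4 probe sets that put the same arrays high and low but by different amounts. In 1415883_a_at the WT arrays read -0.59, 1.98, -6.70 and 0.59. The IE-Cpr-null arrays read -3.72, -6.66, -6.68 and -6.66 there. The low arrays again lay close together, within 0.040. On IE-Cpr-null 1 the 4 probe sets of this gene read from -3.72 to -1.37, and on WT 3 from -7.86 to -3.23, so that the size of the gap depended on the probe set. The WT range was smallest in 1415884_at, at 6.21.

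Cela1, an elastase gene that the mouse pancreas also expresses, was high and low on the same arrays with a much smaller span. The WT arrays read -0.35, 0.87, -1.49 and 0.35, and the IE-Cpr-null arrays -0.93, -1.56, -1.60 and -1.67. Its WT range was 2.36, against 6.21 to 9.45 in the probe sets of Cela3b.

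The promoters of these elastase genes are shown because the genes went up and down together across the arrays. They are RefSeq sequences of build GRCm38.p6, from 250 bases before to 50 after the gene's start, 5′ to 3′ on the gene's strand. Capitals mark the letters CACCTG (an E-box) and TTTCCC on either strand, the parts of the element that the acinar transcription factor complex PTF1 is known to bind.
Cela1, chr15:100687871-100688170, minus strand: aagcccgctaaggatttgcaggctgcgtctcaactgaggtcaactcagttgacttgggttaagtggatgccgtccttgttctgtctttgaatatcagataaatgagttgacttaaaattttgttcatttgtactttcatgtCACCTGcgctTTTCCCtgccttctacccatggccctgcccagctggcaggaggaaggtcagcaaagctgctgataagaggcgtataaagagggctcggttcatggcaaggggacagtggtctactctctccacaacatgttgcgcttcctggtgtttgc
Cela2a, chr4:141825956-141826255, minus strand: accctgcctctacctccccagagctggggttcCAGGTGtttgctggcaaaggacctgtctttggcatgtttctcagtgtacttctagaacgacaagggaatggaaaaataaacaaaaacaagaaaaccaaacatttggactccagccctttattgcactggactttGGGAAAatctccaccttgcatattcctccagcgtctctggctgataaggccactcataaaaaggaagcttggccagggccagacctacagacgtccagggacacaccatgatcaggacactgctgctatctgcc
Cela3b, chr4:137430471-137430770, minus strand: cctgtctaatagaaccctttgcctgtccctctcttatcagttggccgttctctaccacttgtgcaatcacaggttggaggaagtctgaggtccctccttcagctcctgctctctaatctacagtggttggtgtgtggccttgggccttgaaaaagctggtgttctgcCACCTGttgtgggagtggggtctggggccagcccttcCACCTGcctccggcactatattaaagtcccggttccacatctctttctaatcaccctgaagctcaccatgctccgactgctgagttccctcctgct

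In the Cela1 promoter both pieces lay on the gene's strand with 4 bases between them, and in that of Cela2a they lay 128 bases apart, with no overlap in either. Of the 9 genes, 8 had a promoter sequence, Clps being the exception. CACCTG was found in 5 of the 8 and in 20.2% of 32851 promoters of the same length. TTTCCC was found in 4 of the 8 and in 25.2% of them. Both occurred, at any distance and on either strand, in 2 of the 8 and in 4.86% of all, so this count says nothing of their spacing. The promoter of Cela3b held CACCTG but not TTTCCC. A match describes letters in this window and is not a shown binding site.

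Ctrb1, which encodes chymotrypsinogen B1, the precursor of a protease that cuts after aromatic residues, followed the same arrays. The WT arrays read -0.56, 1.73, -7.26 and 0.56. The IE-Cpr-null arrays read -3.26, -6.42, -6.96 and -6.43. IE-Cpr-null 2 and 4 stood slightly above IE-Cpr-null 3 and WT 3, so that the low arrays were less alike here, with a span of 0.83.

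2210010C04Rik, which the annotation gives only by this identifier, was read by 3 probe sets that disagreed. In 1422434_a_at the WT arrays read -0.46, 1.46, -7.56 and 0.46, and the IE-Cpr-null arrays -1.65, -7.45, -7.97 and -7.66. In 1422435_at the readings were similar, with a WT range of 9.03 and -6.52 on IE-Cpr-null 4, the highest of the low arrays. The third, 1422436_at, stayed between -0.25 on WT 3 and 0.15 on WT 2.

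The carboxypeptidases, which take amino acids from the ends of peptides, split the arrays in the same way. Cpa1, which encodes carboxypeptidase A1, read -1.18, 2.19, -5.94 and 1.18 on the WT arrays. It read -2.21, -5.92, -5.93 and -5.96 on the IE-Cpr-null arrays. WT 3 and IE-Cpr-null 2, 3 and 4 lay within 0.041 of each other.

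Cpb1, which encodes carboxypeptidase B1, showed the same arrays high and low. The WT arrays read -1.07, 1.76, -7.26 and 1.07, and the IE-Cpr-null arrays -3.90, -7.21, -7.24 and -7.21. On IE-Cpr-null 1 its value relative to the WT median was the lowest of the 9 genes, which compares no levels. It was still 3.31 above the next IE-Cpr-null array.

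Of the genes of fat digestion, Pnliprp1, which encodes a pancreatic lipase-related protein, behaved like the proteases. The WT arrays read -0.69, 1.75, -4.76 and 0.69, and the IE-Cpr-null arrays -1.17, -4.83, -4.83 and -4.77. IE-Cpr-null 1 lay closer to WT 1 than to any other array in this gene.

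Clps, which encodes colipase, was the member that went with other arrays. Its probe set 1415805_at read -0.45, 0.27, -0.021 and 0.021 on the WT arrays and 1.03, -1.59, -1.62 and -1.58 on the IE-Cpr-null arrays. Its second probe set, 1438612_a_at, read -0.50, 0.56, 0.030 and -0.030, and 1.34, -1.74, -1.83 and -1.78. Both probe sets thus put IE-Cpr-null 1 above every other array and left WT 3, which was low in the other 8 genes, among the WT arrays. The WT ranges of 0.72 and 1.06 were smaller than the IE-Cpr-null ranges of 2.65 and 3.17, the reverse of every other member.

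Leaving Clps and the flat probe set 1422436_at aside, 12 probe sets of 8 genes shared 1 pattern, and this set was drawn after the values were seen. Their WT ranges ran from 2.36 to 9.76. WT 2 exceeded WT 1 by 1.22 to 3.39 in them. IE-Cpr-null 1 exceeded the next IE-Cpr-null array by 0.57 to 6.42. WT 3 and IE-Cpr-null 2, 3 and 4 spanned 0.040 to 1.09, and under 0.1 in 5 of the 12. Whether the genes were above background on these arrays is unknown without levels.

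Within the WT arrays, probe sets of these genes were among the widest-spread of those deposited. The members were chosen on earlier results that showed such spread, so this rank is only a description. Of the 20 probe sets with the widest WT range, 10 were members, 3 others carried 1 gene symbol (Prss2, Rgs5 and Car3) and 7 are not named here. The median WT range was 8.13 over the members and 0.20 over all probe sets. The median IE-Cpr-null range was 3.34 over the members and 0.26 over all.

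Between genotypes, 14 of the 15 member probe sets had a lower mean in IE-Cpr-null, with a median difference of -4.07 against 0.016 over all probe sets. Cpb1 averaged -1.38 ± 4.10 (SD, n = 4) in WT and -6.39 ± 1.66 (SD, n = 4) in IE-Cpr-null. Its difference of -5.01 (SE 1.98) had a limma adjusted p of 0.626. None of the 15 (0) passed an adjusted p of 0.05 in limma, where 4 of 18443 probe sets or 0.0217% passed, and 5 had an unadjusted p under 0.05, as 1364 of all probe sets did. Adjusted p over the members ran from 0.593, for Cela1 (difference -1.29, SE 0.481), to 0.978, for the flat probe set of 2210010C04Rik (0.0067, SE 0.080). The genotypes overlapped in every member: in none (0) did each IE-Cpr-null array lie below each WT array, which held for 2.47% of all probe sets. The WT range was larger than the difference in 14 of 15, with 1 exception in Clps. Since this contrast was known when the members were chosen, nothing is read from these counts. Without the muscle-rich arrays WT 2 and IE-Cpr-null 1, left out after the data were seen, the median difference was -3.95 and again 0 passed, against 0.0163% of all probe sets. Without IE-Cpr-null 1 alone, 1 passed, the Clps probe set 1415805_at at -1.55 (SE 0.157, limma adjusted p = 0.0493), and so did 16 of all 18443 probe sets or 0.0868%. With arrays weighted by their quality, 4.02% of all probe sets passed and so did 4 member probe sets, of Clps, Cela3b, Cela1 and Cpb1, as lower. Those weights were 6.49 for IE-Cpr-null 4 and 2.84 for WT 4, and at most 0.992 for the others, so that this fit leaned on 1 array of each genotype.

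**Figure D2:**
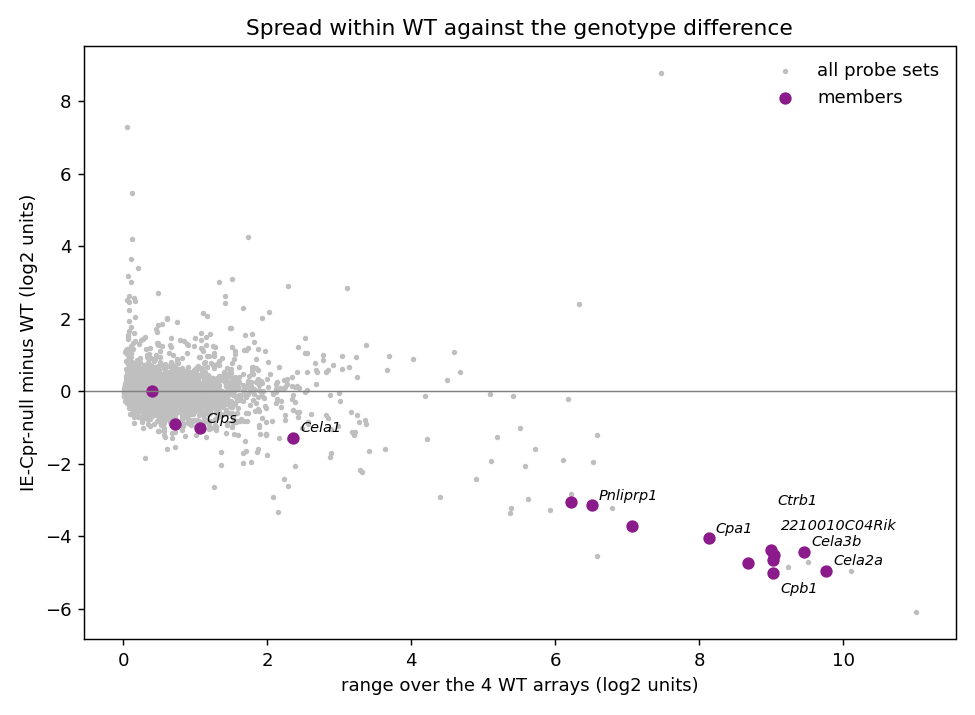
Range over the 4 WT arrays (horizontal axis, log2 units) against the IE-Cpr-null minus WT difference (vertical axis, log2 units), with a grey point for each of 18443 probe sets and purple points for the 15 members, labelled at the widest probe set of each gene. The members reach WT ranges of 9.76 and differences of -5.01, and their range within WT is mostly the larger of these.

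Other secreted products of acinar cells, from a list written with earlier results known, divided in the same way only in part. Of the 32 genes listed, 18 were measured and 8 had a range over 1 across the 8 arrays. The list median stayed between -0.30 and 0.082 on every array. The 6 with the widest range were Prss2, Ctrl, Sycn, Cel, Pnliprp2 and Gp2.

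Prss2, a trypsinogen gene, read -0.77, 1.86, -3.83 and 0.85 on the WT arrays and -1.50, -4.32, -4.48 and -4.77 on the IE-Cpr-null arrays. Ctrl, a chymotrypsin-like protease gene, read -0.52, 1.27, -4.11 and 0.52, and -2.10, -4.59, -4.62 and -4.38. Both were high and low on the same arrays as Cela2a and Cpa1. Cel, the bile salt-activated lipase gene, read -3.90 on WT 3 and -2.83 on IE-Cpr-null 1. Sycn, the gene of the zymogen granule protein syncollin, read -3.03 and -2.19 on those arrays. Gp2, the gene of a zymogen granule membrane protein, was high on WT 2 alone, at 2.05 against -0.53 to 0.40 on the other arrays.

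Over all 10401 genes, the 4 most like the members were also acinar genes. Likeness was the mean absolute difference, over the 8 arrays, from the members' median profile after each gene was centred on its own mean. It was 0.60 for Prss2, 0.70 for Ctrl, 1.05 for Cel and 1.26 for Sycn, and a flat profile would have given 2.81. The next were Ugt2b38 at 1.63, Slc37a2 at 1.66, Myl9 at 1.86, Ppic at 1.93, S100g at 1.97, Cybrd1 at 2.06, Greb1 at 2.07 and Pdk4 at 2.16. Their Pearson r with the members' median profile ran from 0.559 to 0.878, against 0.947 to 0.994 for the first 4. Myl9 was highest on IE-Cpr-null 1, at 7.53, and Pdk4 read -0.76 on WT 2, the array highest in the members. The measure also depends on the size of a gene's span. Among the members themselves Cela3b was at 0.098 and Cpa1 at 0.26, while Cela1 was at 2.03 and Clps at 2.27, farther than 9 and 22 genes that are not members. The profile is the median of these members, so a member in the middle of them is close to it by construction.

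Genes of other pancreatic cells and of the acinar cell interior did not show the pattern as lists. Of 10 acinar genes whose products are not secreted, 4 were measured, and the widest, the transcription factor gene Bhlha15, was highest on WT 3 at 1.42 and on IE-Cpr-null 1 at 0.99, opposite to the enzymes on WT 3. The medians of 4 measured islet genes stayed between -0.19 and 0.066, and those of 4 duct genes between -0.20 and 0.13. These medians hide single genes. Pdx1, in the islet list and also in the proximal intestine list below, read 1.18 on WT 2, -0.75 on WT 3 and -4.25 on IE-Cpr-null 3. The other islet genes had ranges of at most 0.54 over the 8 arrays, and the duct genes of up to 1.59. Values near 0 on every array do not show whether such a gene was expressed, since levels are unknown.

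Markers of other cell types and gut regions moved on some of the same arrays, and their part in the enzyme values was not tested. Smooth muscle and stromal genes (10 of 10 measured) had medians of 2.56 on WT 2 and 6.67 on IE-Cpr-null 1, the arrays highest in the enzymes within their genotype, and between -0.28 and 0.12 on the other arrays. WT 1 and WT 4, also high in the enzymes, had list medians of 0.12 and -0.22. Single genes of the list differed from that median. Myl9 read 2.29 on WT 1, against -2.34 on WT 3 and -2.29 on WT 4. The other genes of the list ran from -0.21 to 0.93 on WT 1. Adipoq, a fat cell gene, read 1.17 on WT 2 and 4.96 on IE-Cpr-null 1 and at most 0.024 elsewhere. Of the other adipose genes measured (3 of 6 listed), Car3 read 1.94 on WT 2 and 3.23 on IE-Cpr-null 1 but also 3.16 and 1.83 on IE-Cpr-null 2 and 3, which were low in the enzymes, and the remaining gene was flat. Hepatocyte genes (13 of 15) had medians of 5.64 and 3.34 on IE-Cpr-null 2 and 3 and of -0.039 to 0.048 elsewhere, and both arrays were low in the enzymes. Here too single genes differed from the median. Alb also read 1.70 on WT 2 and 1.40 on IE-Cpr-null 4, and the lowest gene of the list read -1.80 on IE-Cpr-null 1.

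Genes of the proximal small intestine, where the pancreatic duct opens, had their highest median on WT 2. Of 10 listed, 7 were measured, with medians of -0.11, 0.36, -0.65 and 0.11 on the WT arrays and -0.38, -0.046, -1.36 and -0.21 on the IE-Cpr-null arrays. Tmprss15, the enteropeptidase gene, read -0.65 on WT 3 and -2.39 on IE-Cpr-null 3, and from -0.11 to 0.26 on the other arrays. Slc40a1, an iron exporter gene, read 1.43 on WT 2 and -8.19 on IE-Cpr-null 3, and Pdx1 1.18 and -4.25. IE-Cpr-null 2 and 4 were as low in the enzymes as IE-Cpr-null 3 but near the WT arrays in Tmprss15, at 0.15 and 0.22. Cybrd1, a duodenal ferric reductase gene, instead read -1.25, -1.04, -1.36 and -1.26 on the IE-Cpr-null arrays, close to -1.06 on WT 3, and Slc40a1 read -2.19 on IE-Cpr-null 2, below every WT array. The listed genes thus differed among themselves in which arrays were low. Of the distal genes (4 of 7 measured), Fabp6, the ileal bile acid-binding protein gene, stayed between -0.077 and 0.13, whereas Cubn, the gene of the endocytic receptor cubilin, read -1.47, -2.46, -0.71 and -0.82 on the IE-Cpr-null arrays and -0.54 to 0.078 on the WT arrays. The 12 measured enterocyte genes had medians between -0.092 and 0.030 on every array. The widest of them read -0.78 and -0.71 on IE-Cpr-null 1 and 2, -0.41 on WT 2, and -0.079 to 0.12 on the other arrays.

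**Figure D3:**
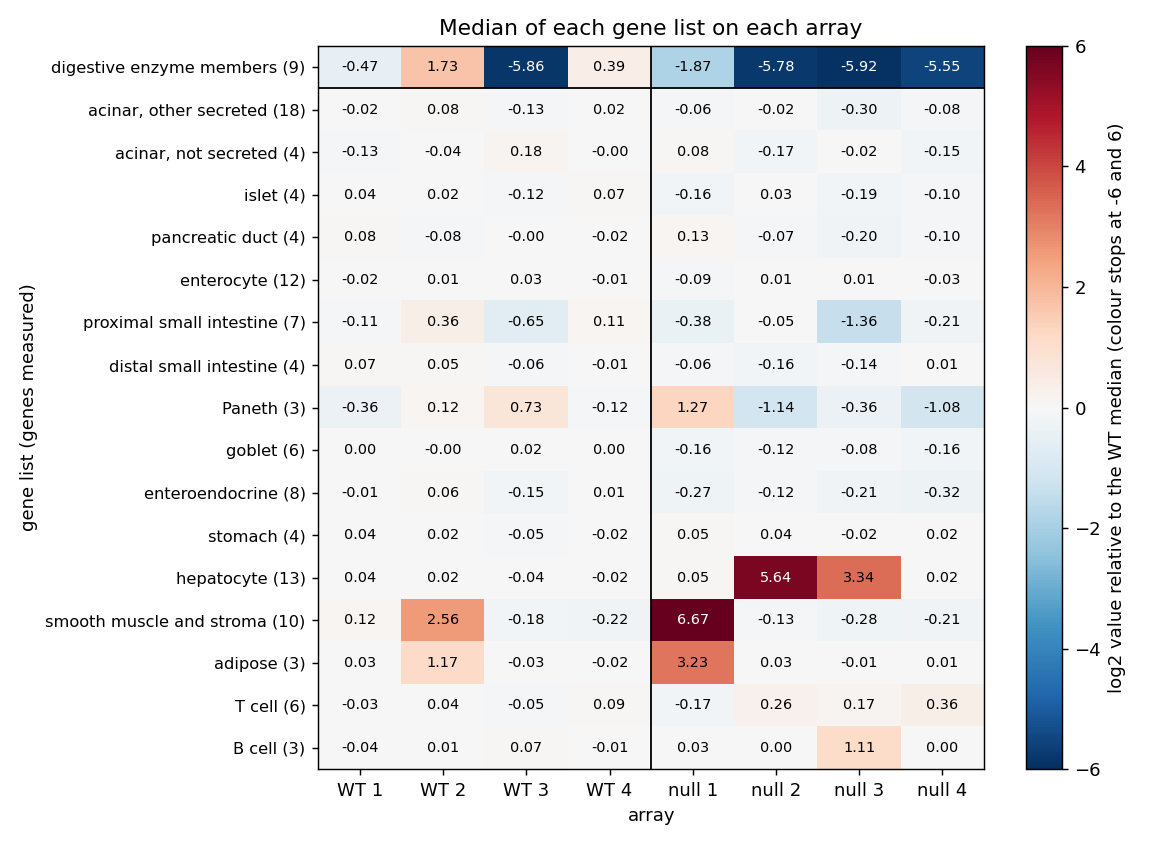
Median log2 value relative to the WT median of the 9 members (top row) and of each marker list (other rows, measured genes in brackets) on each of the 8 arrays, by colour and number. The members are low on WT 3 and IE-Cpr-null 2 to 4, the muscle list is high on WT 2 and IE-Cpr-null 1, and the hepatocyte list on IE-Cpr-null 2 and 3.

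Paneth cell genes were set beside Clps after its values were seen. Paneth cells are granule-rich secretory cells at the crypt base. Of 8 listed, 3 were measured, with medians of -0.36, 0.12, 0.73 and -0.12 on the WT arrays and 1.27, -1.14, -0.36 and -1.08 on the IE-Cpr-null arrays. Mmp7, a Paneth cell protease gene, read 1.48 on WT 3 and 2.93 on IE-Cpr-null 1. Itln1, a lectin gene, read 0.73 and 1.27 there and -1.14, -0.67 and -1.08 on the last 3 IE-Cpr-null arrays. By the same measure of likeness Itln1 lay 0.40 from Clps, the remaining Paneth gene 0.52 and Mmp7 0.68. Of the members, Cela1 lay 0.75 and Cela2a 3.33 from it. Col3a1 was closest of all genes at 0.33 and Itln1 ranked 4, while Mmp7 and the remaining Paneth gene were not among the closest 12. These distances also depend on the size of a gene's span, and that of a flat profile from Clps was not computed. On WT 3 the Paneth genes read 0.62 to 1.48, whereas Clps read 0.0048. Pnliprp2, another lipase-related gene, was also highest on IE-Cpr-null 1, at 1.91, but unlike Clps read 0.44 on IE-Cpr-null 2.

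**Figure D4:**
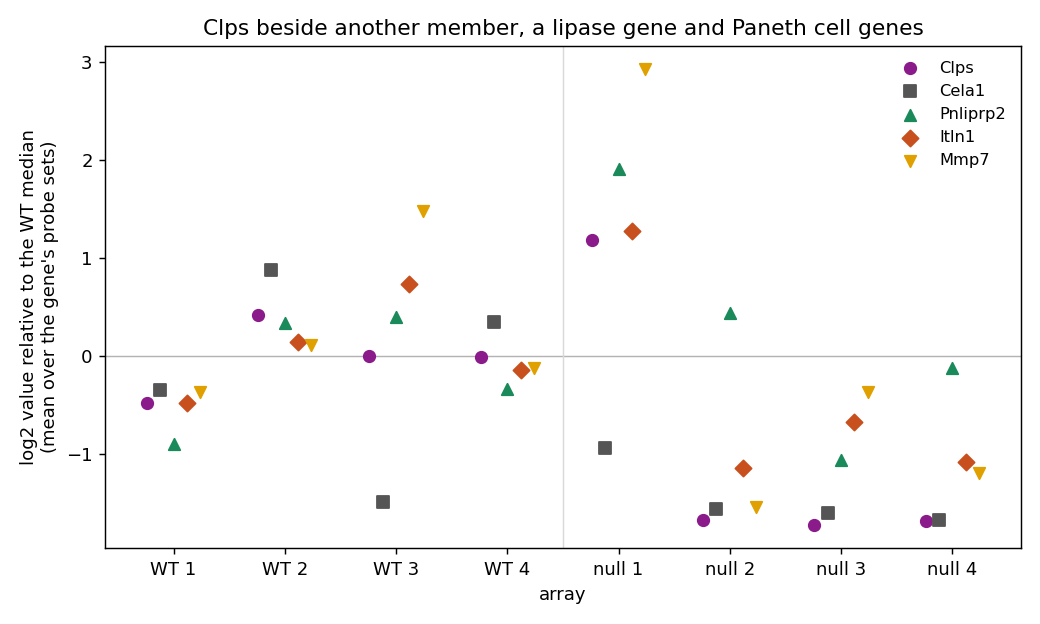
Log2 value relative to the WT median (vertical axis, mean over a gene's probe sets) of Clps, Cela1, Pnliprp2, Itln1 and Mmp7 on each of the 8 arrays (horizontal axis); each point is 1 array. Clps, Pnliprp2, Itln1 and Mmp7 are highest on IE-Cpr-null 1, at 1.19, 1.91, 1.27 and 2.93, where Cela1 is at -0.93.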

How the data were processed

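Per the labels' protocols, total RNA of isolated enterocytes was extracted with TRIzol, column-purified, amplified to biotin-labelled antisense RNA and hybridised to single-colour arrays. The deposited values are log2 values per probe set, made by the authors with GCRMA per the submitters' processing notes, with version and settings not given in the sources used here. Each of the 18443 deposited probe sets had been centred to a WT median of 0 (tolerance 0.00001). Signal over background is therefore unknown, and no dim probe set was left out here. Whether probe sets had been removed before deposit is unknown. GCRMA estimates background from probe sequence, and low values can collapse to near-equal numbers.

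Groups and replicate numbers came from sample titles. Genes were named from the platform annotation where a probe set had 1 symbol (16689 probe sets, against 616 with several). Genes with several probe sets are means of them in lists and in the likeness measure. limma 3.58.1 (R 4.3.3; lmFit, eBayes, two-sided) was fitted to all probe sets with the 2 group means, with Benjamini-Hochberg adjustment over 18443. It was tested on simulated data. Nothing in the labels gives a batch, and the number of arrays limits precision. The members and all lists were chosen with earlier results of these data known. Genes named are all members, the 6 widest-ranging other acinar genes, the 12 most like the members, and at most 2 of each other list besides Tmprss15 and Fabp6. Rgs5 and Col3a1 were named after their values were seen. Alternatives were quantile normalization, median centring, array weights, a robust prior, a replicate block, leaving out probe sets with shared probes, leaving out each array and, chosen after seeing the data, leaving out the muscle-rich arrays.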

Additional observations from a re-analysis of the deposited data

Results flagged for a closer look

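In groups of 4 arrays, a value was listed here when its gap to the nearest other array, as a share of the group's range, exceeded Dixon's critical value for 4 samples. Chance alone lists about 1 in 20 groups when these are independent and not selected. The genes here were chosen with earlier results known, many for a wide range or for likeness to the members. Many also moved together on the same array. The counts below are therefore not compared with chance. Of 30 groups over the member probe sets, 12 were listed, all for a high value on IE-Cpr-null 1. These values were -1.17 for Pnliprp1, 1.03 and 1.34 for Clps, -1.65 for 2210010C04Rik (1422434_a_at), -0.93 for Cela1, -2.21 for Cpa1, -3.90 for Cpb1, -3.26 for Ctrb1 and -1.87 for Cela2a. For Cela3b they were -3.72, -2.62 and -1.37. WT 3 was not listed in any member, since the other 3 WT arrays were themselves spread.

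Of 52 groups over 26 other named genes, 13 were listed. High values on IE-Cpr-null 1 were those of Prss2 (-1.50), Ctrl (-2.10), Sycn (-2.19), Greb1 (-0.93), Myl9 (7.53), Actg2 (8.89) and Adipoq (4.96). On WT 2 they were those of Actg2 (4.48), Alb (1.70) and Adipoq (1.17), and on WT 3 that of Bhlha15 (1.42). Low values on IE-Cpr-null 3 were those of Pdx1 (-4.25) and Tmprss15 (-2.39).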

How the results depend on the processing

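Over 15 alternatives, the genotype difference was below 0 in all 204 values of the 14 member probe sets other than 1422436_at, and their median over the members ran from -5.82 (array weights) to -3.02 (without WT 2), with -5.73 without WT 3. The count of member probe sets past the threshold was 4 with array weights, and 0 to 1 on leaving out 1 array. The 1 was Clps 1415805_at without IE-Cpr-null 1 (-1.55, limma adjusted p = 0.0493, over all members and alternatives 0.0448 to 1.00). The difference of 1422436_at changed sign with quantile normalization (-8.62e-05), median centring (-0.00656) and array weights (-0.010), and ran from -0.069 to 0.064 on leaving out 1 array. Over all probe sets 741 passed with array weights, 1 with quantile normalization, 1 with the replicate block and 1 to 16 on leaving out 1 array (1 without WT 1, 2 or 4, and 16 without IE-Cpr-null 1). The cause was not tested. The deviations of same-numbered WT and IE-Cpr-null arrays from their group means had r of -0.058, -0.041, 0.26 and 0.13. For numbers 3 and 4 this was the best match, but the highest r, 0.34, was between WT 2 and IE-Cpr-null 1. Numbers were not treated as pairs, and the replicate block gave 0 members. Ranked by Pearson r, 5 of the 12 most alike genes were shared, and Prss2, Ctrl, Cel and Sycn were in each ranking, also without any 1 array. Signal over background is unknown, and so is how far it limits the low values.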
